A study of Mus musculus with 6 samples.

Results

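Double-stranded RNA sensing and the interferon response were followed here through 37 genes in the livers of inosine-injected and control mice. The genes were taken by symbol from a curated list of sensors, signalling factors and interferon-induced genes, and all 37 were present among the 16375 genes of the deposited table. Bulk RNA sequencing covered 3 liver libraries from mice injected intraperitoneally with inosine and 3 liver libraries from control mice. Inosine is the nucleoside formed when adenosine loses its amino group. The labels state neither strain, sex nor age of the mice, nor dose, schedule, time of collection or what the control mice received. The title of the series sets the comparison within work on A-to-I RNA editing in liver and cancer-associated cachexia, and the labels do not state whether these mice carried tumours. Separate animals for separate libraries are not stated outright, so p-values here reflect the spread between libraries, which may be technical.

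Cells read double-stranded RNA as a sign of a virus. The cytosolic helicases RIG-I (Ddx58) and MDA5 (Ifih1) bind it and pass the signal through the adaptor Mavs on mitochondria, while Tlr3 senses it in endosomes, and both routes activate Irf3 and Irf7 and so the genes of type I interferon. Secreted interferon binds its receptor (Ifnar1 with Ifnar2), and a complex that includes Stat2 and Irf9 then switches on a large set of genes through a promoter element, the interferon-stimulated response element (ISRE). A-to-I editing by Adar is known to mark the cell's own double-stranded RNA so that MDA5 does not respond to it. In liver the pathway runs in hepatocytes and in resident immune and endothelial cells. A lower level in whole tissue cannot tell fewer cells of a type from less RNA per cell.

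Part of what these genes share can be read from their promoters. RefSeq promoter windows of build GRCm38.p6, each with 250 bases before and 50 after a gene's start, were matched by symbol for 30 members with 33 windows between them. The remaining 7 members are Dhx58, Oas2, Usp18, Ifi27, Zbp1, Parp9 and Parp14. The ISRE core was searched as GAAANNGAAA on both strands. It stood in 14 of the 33 windows (42.4%) and in 3.44% of all 32851 promoter windows. The interferon-gamma activated site (GAS), a short palindromic element, was searched as TTCNNNGAA, which reads the same on both strands. It stood in 9 of the 33 windows (27.3%) and in 8.30% of all windows. Matches to both overlapped in 1 member window, that of Bst2, and ISRE matches overlapped one another in 4. These matches describe letters and are not shown to be bound in these livers.

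The stretches that carry the matches are shown for members whose values are described below, to set the shared element side by side. They lie upstream of the annotated start and are written 5′ to 3′ on the strand of the gene. Each ISRE match is in capitals, or in Irf1 the GAS match. The GAS match in the window of Bst2 is not marked. Matches on the opposite strand read as TTTCNNTTTC. Isg15 (chr4:156200856-156200915, minus strand), Oas1a (chr5:120907526-120907567, minus), Oas1g (chr5:120887614-120887653, minus), Bst2 (chr8:71537565-71537624, minus), Rsad2 (chr12:26456538-26456597, minus), Ifit1 (chr19:34640770-34640828, plus), Ifit3 (chr19:34583365-34583424, plus) and Ifit3b (chr19:34607761-34607820, plus) hold the ISRE core. In Irf1 (chr11:53769899-53769957, plus) the capitals mark the GAS.
Isg15: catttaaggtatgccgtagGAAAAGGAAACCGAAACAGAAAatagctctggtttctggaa
Oas1a: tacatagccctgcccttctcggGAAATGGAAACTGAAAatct
Oas1g: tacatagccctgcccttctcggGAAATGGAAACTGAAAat
Bst2: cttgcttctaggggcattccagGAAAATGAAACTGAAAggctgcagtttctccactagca
Rsad2: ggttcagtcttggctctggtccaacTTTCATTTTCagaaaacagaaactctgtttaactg
Ifit1: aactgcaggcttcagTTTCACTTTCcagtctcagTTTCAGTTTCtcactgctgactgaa
Ifit3: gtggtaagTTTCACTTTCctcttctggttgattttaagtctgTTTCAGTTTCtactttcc
Ifit3b: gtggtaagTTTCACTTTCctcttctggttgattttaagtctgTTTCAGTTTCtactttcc
Irf1: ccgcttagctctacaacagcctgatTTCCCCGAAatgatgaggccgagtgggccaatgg
Isg15 has 3 overlapping matches in a row. The stretches of Ifit3 and Ifit3b are the same in 60 of 60 bases, and those of Oas1a and Oas1g in 40 of 40. Irf1 has no ISRE core in either of its windows.

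Libraries held between 16383896 and 17505035 counts, and 12326 genes passed the filter on low counts. Of the 37 members 36 passed it, and Oas1g did not. The liver label was checked against 9 hepatocyte genes, whose summed level was 85183 to 117406 TPM (a level corrected for transcript length) in inosine libraries and 75433 to 100892 TPM in control libraries. The most abundant of these hepatocyte genes had a mean of 58744.5 TPM, against a median of 3437 TPM over the list. No library pair of a group agreed within sampling noise. Control library 1 stood apart from the other controls over the whole table, and also on many of the members described below. The chi-square per gene, which is larger for libraries that differ more, was 122 between controls 1 and 2. It was 85.1 between controls 1 and 3 and 28.9 between controls 2 and 3. Inosine pairs ranged from 42.5 to 92.1. The main values without control library 1 are given after the results by role.

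No member passed the test. At an adjusted p under 0.05 in the quasi-likelihood test of edgeR, 0 of 36 members were called, where 1 gene (0.00811%) was called over the whole table. DESeq2 called 0 members and 1.88% of the genes it adjusted, and the authors' deposited table has 0 members with a q-value under 0.05 against 1.17% of its genes. Before adjustment, 5 members had an edgeR p under 0.05 and were lower in inosine, namely Tlr3, Oasl1, Irf1, Dhx58 and Isg15, and 0 were higher. Over all genes tested 7.26% were lower and 7.21% higher by the same rule. Libraries did not overlap between groups for 3 members lower in inosine and 1 higher, against 9.78% and 11.1% of all genes.

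Most members nevertheless leaned the same way. A log2 fold change (inosine over control) below 0 was found for 29 of 36 members (80.6%), against 51.8% of all genes tested. The median was -0.14 over the members and -0.01 over all genes. On the scale of the deposited TPM values 26 of 36 members were lower, with a median of -0.06, where 39.2% of all genes were lower and their median was 0.05. These counts describe a list assembled with earlier results of these data known and carry no test.

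**Figure D1:**
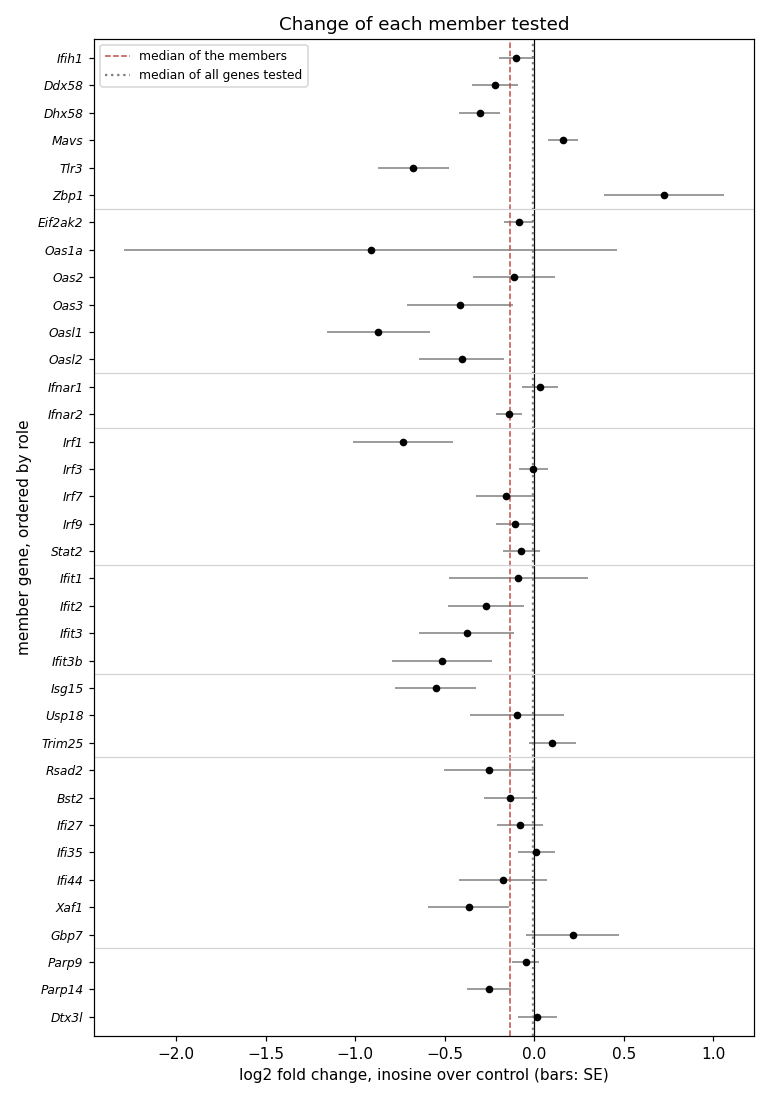
Log2 fold change of each of the 36 members tested (points, inosine over control; bars, SE), grouped by role, with the median of the members (dashed, -0.14) and of all genes tested (dotted, -0.01). Most points lie left of 0, Zbp1 (0.72) is the farthest to the right, and the wide bar belongs to Oas1a, which was listed at 0 in 3 libraries.

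Among the sensors, Tlr3, the endosomal receptor for double-stranded RNA, had the smallest p of all members. It measured 5.46, 5.04 and 3.68 CPM (counts scaled to library size, with TMM factors) in inosine libraries 1 to 3, against 6.65, 9.18 and 6.88 CPM in control libraries 1 to 3. All inosine libraries lay below all controls. Its log2 fold change stood at -0.68 (SE 0.20, adjusted p = 0.22 in edgeR, unadjusted p = 0.0094). With a mean of 1.95 TPM it was also the least abundant of the 6 sensors and adaptors.

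Dhx58 encodes LGP2, a helicase of the RIG-I family that lacks the signalling domains and tunes the other sensors. It measured 8.55, 8.76 and 8.04 CPM in inosine libraries, against 9.43, 11.3 and 10.6 CPM in controls. The groups did not overlap here either, and the log2 fold change was -0.31 (SE 0.12, adjusted p = 0.30 in edgeR). The sensors themselves differed less, with Ddx58 at -0.22 (SE 0.13) and Ifih1 at -0.10 (SE 0.10), and their groups overlapped.

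Mavs, the shared adaptor of both helicases, leaned the other way. It measured 86.6, 86.1 and 99.4 CPM in inosine libraries, against 82.3, 79.4 and 81.5 CPM in controls, with every inosine library above every control. On the log2 scale the change was 0.16 (SE 0.08, adjusted p = 0.41 in edgeR). Mavs was the most abundant of this role, at a mean of 41.8 TPM.

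Zbp1, a sensor of Z-form nucleic acids that can trigger necroptosis and that binds some unedited double-stranded RNA, is described after its values were seen, as the member with the highest fold change. It measured 9.96, 14.0 and 7.48 CPM in inosine libraries, against 3.99, 5.52 and 9.50 CPM in controls. Inosine library 3 lay below control library 3, so the groups overlapped. Inosine over control gave a log2 change of 0.72 (SE 0.33, adjusted p = 0.37 in edgeR), and DESeq2 gave an adjusted p of 0.31. Over all 14 alternatives its value stayed above 0, between 0.46 and 1.14, and its adjusted p between 0.31 and 0.64.

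**Figure D2:**
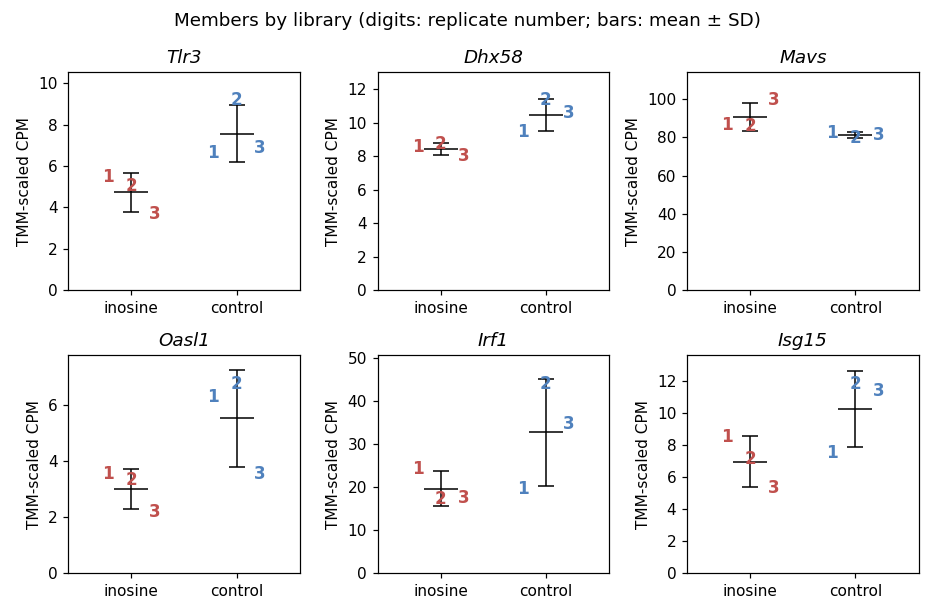
Levels of 6 members in TMM-scaled CPM (y axes from 0) in inosine and control libraries, with digits for the replicate numbers and bars for the mean ± SD (n = 3). Inosine libraries lie below all controls for Tlr3, Dhx58 and Oasl1 and above them for Mavs, while control 1 lies within the inosine range for Irf1 and Isg15.

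The next role joins the kinase PKR (Eif2ak2), which halts translation on binding double-stranded RNA, and the oligoadenylate synthetases, which make 2′-5′ oligoadenylates, a signal for RNA decay. All 6 tested members of this role had a value below 0, with a median of -0.41, but 1 of them is Oas1a, described below, and Oas2 turned above 0 on the TPM scale. Oasl1, a synthetase-like protein known in mice to restrain translation of Irf7, measured 3.54, 3.32 and 2.18 CPM in inosine libraries, against 6.29, 6.78 and 3.56 CPM in controls. The groups did not overlap, though inosine library 1 and control library 3 nearly met. Its log2 fold change was -0.87 (SE 0.29, adjusted p = 0.26 in edgeR).

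Eif2ak2, the most abundant of the role at a mean of 6.62 TPM, measured 25.3, 25.6 and 24.5 CPM in inosine libraries, against 24.7, 28.4 and 27.0 CPM in controls. The groups overlapped at a log2 change of -0.09 (SE 0.08, adjusted p = 0.65 in edgeR). Oasl2 measured -0.41 (SE 0.24), Oas3 -0.41 (SE 0.30) and Oas2 -0.11 (SE 0.23). Oas3 was the scarcest member that passed the filter, at a mean of 0.53 TPM.

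Oas1a and Oas1g are neighbouring synthetase genes on chromosome 5 whose reads can be shared. Oas1a was listed at 0, 42.1 and 0 estimated counts in inosine libraries 1 to 3 and at 22.8, 53.9 and 0 in control libraries 1 to 3. Oas1g was listed at 0, 12.9 and 0 estimated counts in inosine libraries and at 7.19, 22.1 and 0 in controls. The sums of the pair were whole numbers in 6 of 6 libraries (within 0.02), at 0, 55 and 0 in inosine libraries and 30, 76 and 0 in controls. With 3 counts as the limit that a 0 allows, the ceiling was 0.17 CPM in inosine library 1, 0.19 CPM in inosine library 3 and 0.17 CPM in control library 3, counting error only. No group difference can be read from either gene. Fitted as 1 gene, the pair had an SE of 1.41 on the log2 scale.

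The interferon receptor showed little difference. Ifnar2 measured 60.9, 56.5 and 56.0 CPM in inosine libraries, against 60.7, 66.1 and 64.4 CPM in controls. Only inosine library 1 reached the control range, and the log2 fold change was -0.14 (SE 0.07, adjusted p = 0.43 in edgeR). Ifnar1 measured 0.03 (SE 0.10). Per length Ifnar2 was the more abundant subunit, at a mean of 84.4 TPM, against 7.43 TPM for Ifnar1.

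Among the transcription factors Irf1 had the smallest p. Irf1 is induced by interferon-gamma and by type I interferon and acts on genes of antigen presentation and antiviral defence. It measured 24.3, 17.3 and 17.4 CPM in inosine libraries, against 19.5, 44.0 and 34.7 CPM in controls. Control library 1 lay within the inosine range, and controls 2 and 3 lay above every other library. The log2 fold change came to -0.73 (SE 0.28, adjusted p = 0.30 in edgeR). Without control library 1 it was -1.0 with an edgeR adjusted p of 0.058, the lowest for any member under any setting, and without control library 2 it was -0.46. Over all 14 alternatives the adjusted p of Irf1 ran from 0.058 to 0.62.

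Irf3, which is activated by phosphorylation and not mainly by its level, was the most abundant factor at a mean of 30.5 TPM. It measured 37.5, 40.4 and 40.6 CPM in inosine libraries, against 36.7, 40.1 and 42.2 CPM in controls, and the groups covered the same range. Its log2 fold change was -0.01 (SE 0.08, adjusted p = 0.98 in edgeR), and its sign turned under 5 of 14 alternatives, the TPM scale among them. Irf7, the interferon-induced partner of Irf3, measured -0.16 (SE 0.17), and Irf9 and Stat2, which are parts of the factor that binds the ISRE, measured -0.11 (SE 0.10) and -0.07 (SE 0.11).

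The IFIT genes encode proteins that bind foreign RNA and are among the most strongly interferon-induced genes. All 4 had a value below 0, also on the TPM scale, with a median of -0.32. Ifit3 measured 16.0, 12.3 and 8.91 CPM in inosine libraries, against 10.9, 20.3 and 17.3 CPM in controls, a log2 change of -0.38 (SE 0.27, adjusted p = 0.54 in edgeR). Ifit3b measured 4.44, 3.66 and 3.55 CPM in inosine libraries, against 3.33, 6.06 and 7.29 CPM in controls, at -0.52 (SE 0.28, adjusted p = 0.44 in edgeR). Control library 1 lay within the inosine range for Ifit3 and below every other library for Ifit3b.

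Ifit3 and Ifit3b share the promoter stretch printed above. Their estimated counts added up to whole numbers in 6 of 6 libraries, so the division of counts between the 2 genes is uncertain. Summed, they held 364, 279 and 200 counts in inosine libraries, against 236, 439 and 421 in controls. The log2 fold change of the sum was -0.41 (SE 0.25, adjusted p = 0.49 in edgeR). Ifit2 measured -0.27 (SE 0.21) and Ifit1 -0.09 (SE 0.39). Ifit1 was high in inosine library 1 at 10.7 CPM and low in inosine library 3 at 3.93 CPM, a wider spread than between the groups.

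Isg15 encodes a ubiquitin-like protein that is attached to other proteins after interferon, Usp18 removes it and dampens the receptor, and Trim25 is a ubiquitin ligase tied to RIG-I. Isg15, with 3 ISRE matches in its promoter window, measured 8.49, 7.10 and 5.30 CPM in inosine libraries, against 7.50, 11.8 and 11.4 CPM in controls. Controls 2 and 3 lay above every inosine library and control 1 within their range. Its log2 fold change stood at -0.55 (SE 0.23, adjusted p = 0.32 in edgeR). Usp18 measured -0.10 (SE 0.26) and Trim25 0.10 (SE 0.13).

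Of 7 further interferon-induced effectors, 5 had a value below 0 and none an unadjusted p under 0.05. Bst2 (tetherin), which holds budding virus at the cell surface, was the most abundant member of all, at a mean of 247 TPM. It measured 100.1, 79.5 and 93.2 CPM in inosine libraries, against 80.5, 117 and 101 CPM in controls, a log2 change of -0.13 (SE 0.15, adjusted p = 0.71 in edgeR). Ifi27, at a mean of 168 TPM, measured -0.08 (SE 0.13). Xaf1, an interferon-induced promoter of apoptosis, measured 7.37, 6.64 and 5.61 CPM in inosine libraries, against 5.68, 10.4 and 9.27 CPM in controls, at -0.37 (SE 0.23, adjusted p = 0.49 in edgeR).

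As for Irf1 and Isg15, control library 1 fell within the inosine range of Xaf1. Rsad2 (viperin), which makes a chain-terminating nucleotide, measured -0.25 (SE 0.25), Ifi44 -0.17 (SE 0.25) and Ifi35 0.01 (SE 0.11). Gbp7, a guanylate-binding GTPase, measured 0.22 (SE 0.26).

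Parp9, Parp14 and Dtx3l lie together on chromosome 16, where Parp9 and Parp14 are ADP-ribosyltransferase family members and Dtx3l is the ubiquitin ligase partner of Parp9. Parp14 measured 36.0, 38.4 and 32.6 CPM in inosine libraries, against 35.1, 47.1 and 45.2 CPM in controls, a log2 change of -0.25 (SE 0.12, adjusted p = 0.39 in edgeR). Parp9 measured 69.5, 71.4 and 65.8 CPM in inosine libraries, against 67.2, 73.3 and 73.0 CPM in controls, at -0.05 (SE 0.08, adjusted p = 0.81 in edgeR), and turned above 0 on the TPM scale. Dtx3l measured 0.02 (SE 0.11).

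Parp9 and Dtx3l run on opposite strands and overlap by 558 bases in the coordinates of the deposited table (GRCm39, chromosome 16, 35758840 to 35759397). Their estimated counts also summed to whole numbers in 6 of 6 libraries. Use of strand in the counting is not stated in the labels. The sum of the pair measured 122 ± 9 CPM in inosine libraries and 124 ± 7 CPM in control libraries (SD, n = 3 each), a log2 change of -0.02 (SE 0.09).

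**Figure D3:**
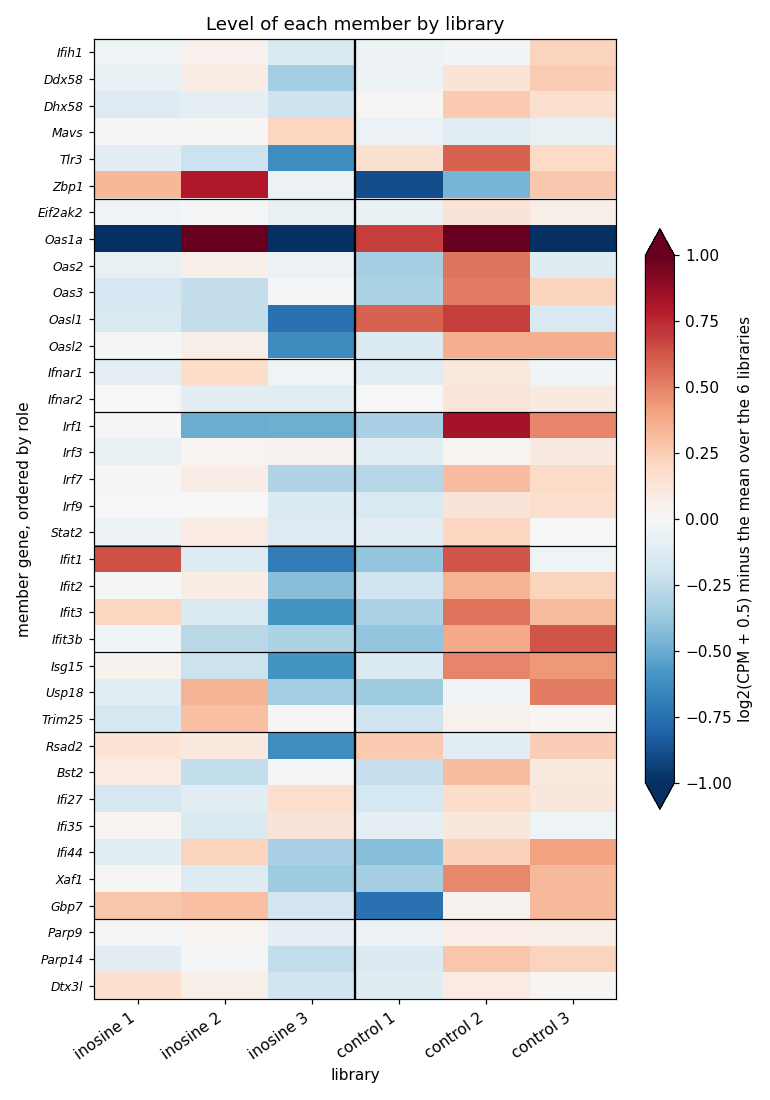
Level of each tested member in each library, as log2(CPM + 0.5) minus its mean over the 6 libraries (colour, from blue for low to red for high; beyond 1 either way the colour saturates). The columns of inosine 3 and control 1 are the bluest, and those of control 2 and control 3 the reddest.

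Levels of the members also differed by library. Inosine library 3 was the lowest of the 6 libraries for 19 of 36 members (52.8%), where it was the lowest for 17.8% of all genes tested. Control library 1 was the lowest for 12 members (33.3%), against 17.6% of all genes. Inosine library 1 was the lowest for 0 members. Control library 2 was the highest for 19 members (52.8%), against 21.9% of all genes, and control library 3 for 9.

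Relative to the control mean, the median of the 36 members stood at -0.10, -0.05 and -0.28 on the log2 scale in inosine libraries 1 to 3, and at -0.21, 0.16 and 0.10 in control libraries 1 to 3. Control 1 thus lay lower than inosine 1 and inosine 2.

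**Figure D4:**
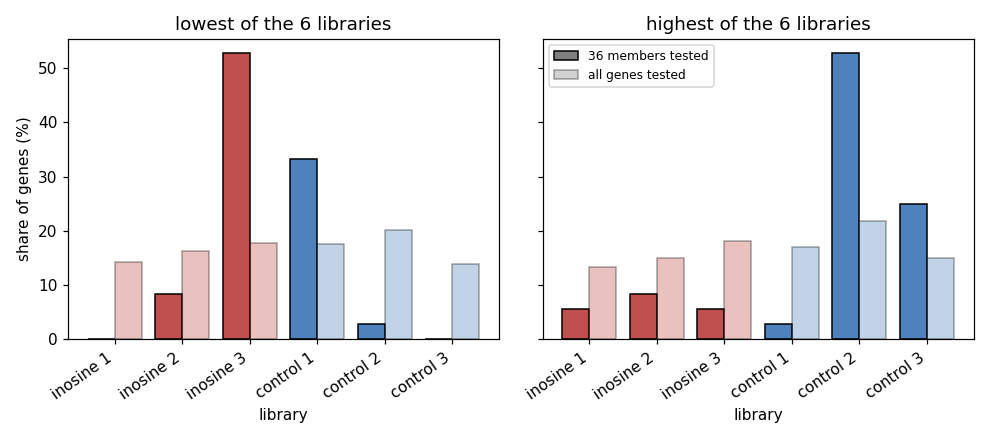
Share of genes (%) for which each library was the lowest (left) or the highest (right) of the 6, for the 36 members (solid bars) and for all genes tested (pale bars). Inosine 3 and control 1 together hold most of the lowest values of the members, and control 2 most of the highest.

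The counts above depended on single libraries accordingly. Without control library 1, 33 of 36 members were lower, where 51.5% of all genes were, with a median of -0.29. Then 13 members had an unadjusted edgeR p under 0.05, all lower, where 9.6% of all genes were lower by that rule, and 0 passed after adjustment. Over the whole table edgeR called 56 genes without control library 1, against 1 with all libraries. Without control library 2, 23 members were lower, where 51.1% of all genes were, with a median of -0.09. The count of lower members was 29 without inosine library 1 (52.2% of all genes), 32 without inosine library 2 (50.5%), 28 without inosine library 3 (51.4%) and 27 without control library 3 (51.2%). The number lower at an unadjusted p under 0.05 was 1 without control library 2 (4.9% of all genes) and 1 without inosine library 3 (5.77%). It was 2 without control library 3 (5.64%), 4 without inosine library 1 (6.04%) and 5 without inosine library 2 (6.58%). The 5 include Oas1a, whose counts at 0 allow no reading. Zbp1 was higher without inosine library 3 and without control library 3, at an unadjusted edgeR p of 0.032 and 0.0062, with no call after adjustment.

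Values of single members moved with the same libraries. Without control library 1 the log2 fold change was -0.76 for Tlr3, -0.37 for Dhx58, -0.77 for Oasl1, -0.73 for Isg15 and -0.37 for Parp14. Without control library 2 it was -0.51 for Tlr3, -0.24 for Dhx58, -0.70 for Oasl1, -0.44 for Isg15 and -0.17 for Parp14. Omitting inosine library 3 gave -0.53 for Tlr3, -0.27 for Dhx58, -0.69 for Oasl1, -0.39 for Isg15 and -0.19 for Parp14. Ifit3 measured -0.59 without control library 1 and -0.61 without inosine library 1, but -0.18 without control library 2 and -0.19 without inosine library 3. Ifit3b measured -0.78 without control library 1 and -0.27 without control library 3. Xaf1 measured -0.58 without control library 1 and -0.19 without control library 2. None of these values passed the test after adjustment in edgeR.

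Markers of the cells that carry much of this pathway also varied by library. For Kupffer cells and macrophages, 13 of 14 markers had a log2 fold change below 0 (median -0.22), where 51.8% of all genes tested were lower. Both edgeR and DESeq2 called 0 of them, where edgeR called 0.00811% of all genes tested and DESeq2 1.88% of those it adjusted. The summed level of these markers was 477, 451 and 412 TPM in inosine libraries and 415, 537 and 540 TPM in control libraries. Inosine 3 and control 1 were thus the lowest of the 6. The same 2 libraries were the lowest for conventional dendritic cells, with 133, 140 and 106 TPM in inosine libraries and 107, 128 and 178 TPM in control libraries. That list includes the antigen presentation genes H2-Aa, H2-Ab1 and Cd74, and 6 of its 10 genes were tested. Its most abundant gene had a mean of 68.1 TPM, against a median of 1.4 TPM over the list. Inosine 3 and control 1 were also the lowest for T and NK cells, with 11.2, 8.33 and 4.05 TPM in inosine libraries and 7.29, 10.9 and 13.0 TPM in control libraries. Only 3 of 10 T and NK cell markers passed the filter on low counts. Ccl5, which is on that list, is also an interferon-induced gene of the wider list described below.

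Neutrophil markers summed to 32.8, 15.7 and 8.89 TPM in inosine libraries and 7.41, 29.6 and 32.1 TPM in control libraries. For B cells the sums were 5.93, 3.93 and 2.99 TPM in inosine libraries and 4.47, 6.73 and 5.42 TPM in control libraries. The filter on low counts was passed by 3 of 7 neutrophil markers and 4 of 6 B cell markers. Plasmacytoid dendritic cells, known as strong producers of interferon, were near the limit of detection, with summed markers of 2.05 to 5.11 TPM in inosine libraries and 3.11 to 5.69 TPM in control libraries and 2 of 9 markers tested.

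Sinusoidal endothelial markers had 12 of 13 genes below 0 (median -0.35) and stellate cell markers 9 of 10 (median -0.33), where 51.8% of all genes tested were. Endothelial sums were 108 to 170 TPM in inosine against 152 to 173 TPM in control. Stellate sums were 183 to 314 TPM in inosine against 249 to 278 TPM in control. For these lists inosine 2 was among the highest libraries. Erythroid transcripts had sums of 1250 to 2383 TPM in inosine and 2950 to 3556 TPM in control, without overlap. All 5 tested erythroid markers were lower at an unadjusted edgeR p under 0.05, where 7.26% of all genes were. DESeq2 called 4 of them and 1 endothelial marker, where it called 1.88% of the genes it adjusted. In edgeR 0 markers of either list were called. Hepatocyte markers leaned the other way, with 7 of 9 higher in inosine (median 0.12). DESeq2 called 1 of them, and their sum, in which the most abundant gene weighs most, was lowest in control 2. No marker in the table was at 0 in all 6 libraries. The part of these cells in the levels of the members was not tested.

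**Figure D5:**
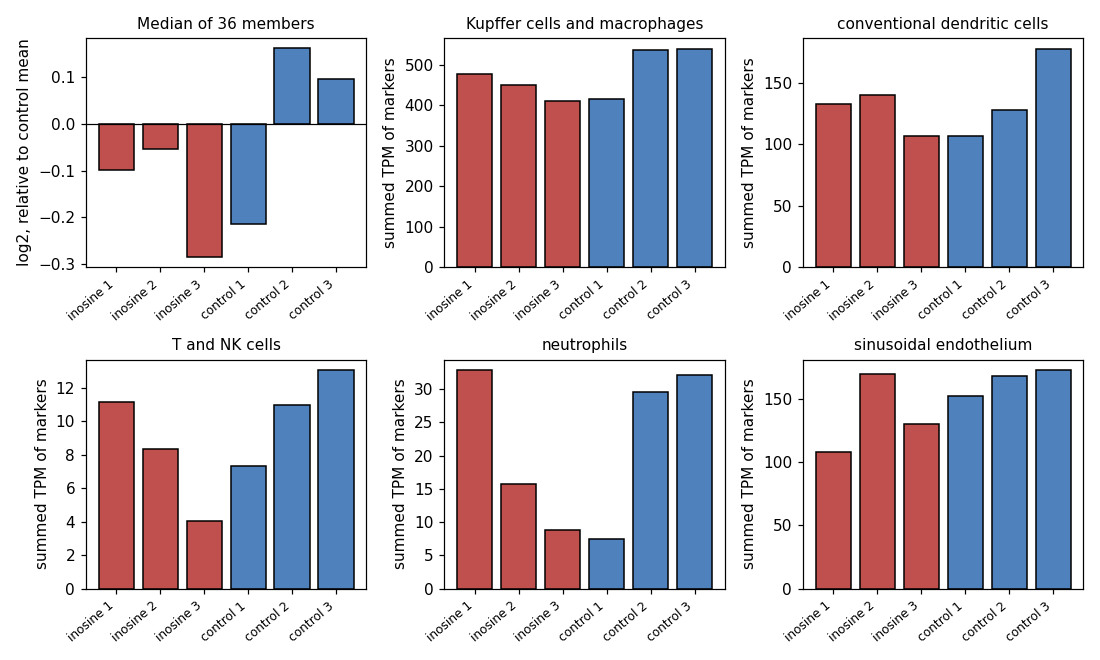
Median of the 36 members by library (log2, relative to the control mean) beside the summed TPM of marker genes of 5 cell types (bars start at 0; inosine red, control blue). Inosine 3 and control 1 are the lowest libraries for the members and for the Kupffer cell, dendritic cell, T and NK cell and neutrophil markers, and not for the endothelial ones.

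A wider list of the pathway held 140 further genes, of which 126 were in the table and 118 were tested. Of these 88 were lower and 30 higher (median -0.14), where 51.8% of all genes tested were lower. Before adjustment 17 of the lower and 3 of the higher ones had an edgeR p under 0.05, where 7.26% and 7.21% of all genes did, and edgeR called 0 after it. DESeq2 called 4, namely Slfn9, Cd274, Lgals9 and Rnf125, all lower, against 1.88% of the genes it adjusted. Among 32 signalling genes 25 were lower (median -0.09), and among 86 interferon-induced genes 63 were lower (median -0.16).

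Of the interferon-induced genes, Slfn9, a member of the Schlafen family, had the smallest p. It measured 4.50, 5.15 and 4.74 CPM in inosine libraries, against 9.13, 8.64 and 7.64 CPM in controls. Its groups stood well apart, control 1 included, at a log2 change of -0.82 (SE 0.13, adjusted p = 0.083 in edgeR, DESeq2 adjusted p = 0.0090). Cd274, which encodes the immune checkpoint ligand PD-L1 and is a known target of Irf1, measured 1.18, 1.20 and 1.31 CPM in inosine libraries, against 2.30, 3.96 and 3.79 CPM in controls.

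The groups of Cd274 did not overlap, and its log2 fold change was -1.44 (SE 0.27, adjusted p = 0.096 in edgeR, DESeq2 adjusted p = 0.0079). Lgals9, which encodes galectin-9, measured -0.45 (SE 0.11, adjusted p = 0.16 in edgeR, DESeq2 adjusted p = 0.016), and Trafd1, a feedback inhibitor of innate signalling, -0.38 (SE 0.10, adjusted p = 0.18 in edgeR). Trafd1 had non-overlapping groups as well. The genes named here were picked for their small p, which favours separated groups. Of the 86 interferon-induced genes tested, groups did not overlap for 12 lower and 0 higher ones, against 9.78% and 11.1% of all genes.

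On the signalling side, Rnf125, a ubiquitin ligase known in human cells to send RIG-I to degradation, measured 96.5, 102 and 74.1 CPM in inosine libraries, against 146, 115 and 129 CPM in controls, at -0.52 (SE 0.14, adjusted p = 0.19 in edgeR, DESeq2 adjusted p = 0.040).

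Irf2, which competes with Irf1 for its sites, measured -0.35 (SE 0.10, adjusted p = 0.22 in edgeR). Dhx33, a helicase reported as an RNA sensor, measured 0.31 (SE 0.10, adjusted p = 0.23 in edgeR). Traf6, a ubiquitin ligase of innate signalling, measured 0.30 (SE 0.10, adjusted p = 0.27 in edgeR). None of these 3 genes overlapped between groups, with Irf2 lower and Dhx33 and Traf6 higher in inosine. They were named for their small p, which favours separated groups. Among the 32 signalling genes tested, groups did not overlap for 9 lower and 3 higher ones, against 9.78% and 11.1% of all genes. The editing enzyme Adar, itself interferon-induced, measured 27.5, 26.8 and 22.7 CPM in inosine libraries, against 22.9, 26.6 and 29.7 CPM in controls. Its groups covered the same range, with a log2 change of -0.04 (SE 0.12, adjusted p = 0.91 in edgeR). The editing enzyme Adarb1 measured -0.24 (SE 0.09, adjusted p = 0.31 in edgeR) and is among the 9 lower genes without overlap.

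Members with and without a match to the ISRE core leaned the same way. Of 13 tested members with a match, 12 were lower (median -0.22). Of 16 tested members whose windows held none, 11 were lower (median -0.15), where 51.8% of all genes tested were. The 12 include Oas1a, whose counts at 0 allow no reading, and both Ifit3 and Ifit3b, whose division is uncertain. Only exact matches in these windows were searched, so members without a match may still carry the element. The member with 3 matches, Isg15, measured -0.55, and Oasl1 and Tlr3, whose windows held none, measured -0.87 and -0.68.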

How the data were processed

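The authors deposited, for each of 6 libraries, expected counts per gene (estimated read counts that need not be whole), FPKM and TPM values, per the file headers. They also deposited DESeq2 output per gene (log2 fold change, p-value, q-value), per the file headers. Bowtie2, RSEM and GRCm39 are named per the submitters' processing notes. FPKM values were not used in any result. All sample columns were matched to a library title, and 0 were left unmapped.

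Counts were rounded (89.8% to 90.3% were whole) and fitted with the quasi-likelihood test of edgeR 4.0.16 in R 4.3.3, with TMM scaling, the filter filterByExpr (minimum count 10), the group as the only term and two-sided p-values adjusted by Benjamini-Hochberg over 12326 genes, with a threshold of 0.05. The SE is the fold change divided by the root of F. The fit was checked on simulated data. Alternatives were DESeq2 1.42.0, limma 3.58.1, other scalings and filters, log2(TPM + 0.5), a replicate block and omission of each library. The limit of 3 counts set for a 0 covers counting error only, while SE and SD values include the spread between libraries.

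The members and lists were chosen with earlier results of these data known. Values by library are given for members with an unadjusted p under 0.05 and, in each role, the most abundant and the one of smallest p. From each wider list the 4 genes of smallest p are named. Zbp1, Oas1a, Oas1g, Adar and Adarb1 were added after their values were seen. Some genes of the pathway are not reported here and were left out of the wider lists.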

Additional observations from a re-analysis of the deposited data

How the results depend on the processing

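Members called stayed at 0 under all 14 alternatives planned, and the count of lower members ran from 23 to 33 of 36 when single libraries were left out and from 26 to 29 otherwise. The median of the members kept its sign under all of them, from -0.29 to -0.06. The number of genes called over the whole table, 1 in edgeR, was 212 with DESeq2, 6 with limma-voom, 9 with no low-count filter, 6 with a mean of at least 1 CPM and 0 with limma on log2(TPM + 0.5), and leaving out single libraries gave 0 to 56; the cause was not tested. Replicate numbers did not pair the libraries: the same-numbered libraries correlated at -0.04, -0.03 and -0.02 in their deviations from the group means, and none correlated best with its own number. With a replicate block 0 genes were called in all and 0 members. Of 212 values of 15 members described by library, 205 kept their direction and side of the threshold, with adjusted p between 0.058 and 1.0. Irf3 turned to 0.00097 with no filter and to 0.0030 on the TPM scale, and over the omissions ran from -0.058 to 0.042. Parp9 turned to 0.011 on the TPM scale. Bst2 ran from -0.27 to 0.00012 over the omissions. Summing the counts of Ifit3 and Ifit3b, an alternative added after seeing the data, kept the direction. With 3 libraries a group, differences of several SE also went uncalled, as for Tlr3 at -0.68 (SE 0.20, adjusted p = 0.22 in edgeR). The absence of called members therefore does not exclude differences of that size.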

Other observations

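Oas1a and Oas1g are the only 2 genes of the table that have at least 5 estimated counts in each of inosine library 2, control library 1 and control library 2 and are listed at 0 in the other 3 libraries. The related gene Oas1c was listed above 0 throughout, at 0.51, 0.52 and 0.25 CPM in inosine libraries and 1.09, 1.38 and 0.47 CPM in control libraries. The pattern crosses both groups, and its cause was not tested.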
